A study of Mus musculus with 48 samples.

Results

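The cell cycle and mitosis genes of mouse liver are described here across 48 livers of mice kept on diets of different energy density and macronutrient composition. The list held 49 genes in 2 groups, 18 of G1 and S phase and 31 of G2 and mitosis. Each gene was read from its probe set with a single gene symbol and the highest mean over all arrays. By that rule 46 of the 49 members were measured, of 22180 genes in all: 17 of the 18 G1 and S phase genes and 29 of the 31 G2 and mitosis genes. Ccnb1, Ccne2 and Ncapg had no probe set with a single symbol and have no value here.

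The mice entered the diets at 3 weeks of age, ate freely, were housed 3 to a cage and gave their livers at 15 months, with 1 animal taken per cage. No treatment other than diet is given, both sexes were in the study, and the labels do not give the sex of a mouse. Diets are named by energy level and by the shares of energy that protein, carbohydrate and fat supply, so Medium energy 14/29/57 is 14% protein, 29% carbohydrate and 57% fat. There were 5 Low, 14 Medium and 29 High energy mice in 20 combinations of energy level with 11 compositions. Protein made up 5% (10 mice), 14% (9 mice), 23% (9 mice), 33% (9 mice), 42% (5 mice) or 60% of energy (6 mice). Medium energy 14/29/57 held a single mouse, number 118, and fitted differences, calls and group values that it moves are also given without it. Expression was read as log2 values, so that a difference of 1 is a doubling.

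The cell cycle genes fall into waves. Cyclin D1 (Ccnd1) carries growth signals into G1, and cyclin E1 (Ccne1) and the E2F factors open S phase, when the Mcm2 to Mcm7 helicase unwinds DNA, Pcna clamps the polymerases to it, and Rrm1, Rrm2 and Tyms make deoxynucleotides. Later Foxm1, Cdk1, cyclin A2 (Ccna2) and cyclin B2 (Ccnb2) drive G2 and mitosis, the kinases Aurka, Aurkb, Plk1 and Bub1 and the kinesins Kif11, Kif20a and Kif23 build and use the spindle, and Cdc20 and Ube2c let the anaphase-promoting complex end it. Most hepatocytes of an adult liver are out of the cycle, and Mki67 and Top2a are used to find the cells that are in it. In resting cells, many late genes are held down through a short element near their start, the cell cycle genes homology region (CHR), often with a CCAAT box upstream, while many S phase genes carry E2F sites.

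The promoters of the members are shown because the G2 and mitosis genes varied together over the livers. Windows from 250 bases before to 50 bases from the start were taken from the RefSeq promoter table for GRCm38.p6, with 29 windows for 26 of the 31 G2 and mitosis genes and 16 windows for 15 of the 18 G1 and S phase genes. Not matched were Foxm1, Ccna2, Aurkb, Kif20a and Tpx2 of G2 and mitosis, and Ccnd1, Ccne2 and Mcm4 of G1 and S phase. The CHR letters TTTGAA or TTCGAA stood, on either strand, in 22 of the 29 G2 and mitosis windows (75.9%), in 4 of the 16 G1 and S phase windows (25%) and in 19.2% of all 32851 windows. CCAAT, on either strand, stood in 25 of 29 (86.2%), 12 of 16 (75%) and 37.4%. A CCAAT starting 25 to 40 bases upstream of a CHR, a spacing chosen after windows of these genes were seen, was in 12 of the 29 G2 and mitosis windows (41.4%), in 0 of the 16 G1 and S phase windows and in 0.706% of all windows. For E2F, any of TTTCCCGC, TTTCGCGC, TTTGCCGC and TTTGGCGC on either strand, the counts were 2 of 29 (6.9%), 5 of 16 (31.2%) and 2.26%. Matches were allowed to overlap. A match is a run of letters and does not show that a factor binds there.

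The stretches below hold the spaced CCAAT and CHR letters, in capitals, for 5 G2 and mitosis genes, and E2F letters, in capitals, for 2 G1 and S phase genes. They are the genes of each list with the highest correlation with the average of the G2 and mitosis genes. Only genes with matches wholly before the start that fit in a stretch of at most 80 bases were taken. Matches not wholly before the start are not shown, such as a further E2F match of Mcm7. Ccnb2, Top2a, Mcm6 and Mcm3, with higher correlations than some of those shown, have such letters but were passed over because their matches reach past the start or span a longer stretch. They are read 5′ to 3′ on the strand of the gene.
Prc1: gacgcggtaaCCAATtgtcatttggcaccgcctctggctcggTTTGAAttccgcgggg
Cdc20: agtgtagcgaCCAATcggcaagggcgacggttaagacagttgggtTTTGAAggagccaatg
Cdk1: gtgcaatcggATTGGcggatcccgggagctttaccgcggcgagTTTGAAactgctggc
Mki67: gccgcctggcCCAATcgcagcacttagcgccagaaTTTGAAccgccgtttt
Kif11: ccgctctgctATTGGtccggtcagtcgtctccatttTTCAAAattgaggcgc
Mcm5: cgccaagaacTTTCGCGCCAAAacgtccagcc
Mcm7: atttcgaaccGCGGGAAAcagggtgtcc

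On GRCm38.p6 the Prc1 stretch is chr7:80294404-80294461 on the plus strand, and its CHR began 30 bases before the start of the gene, 32 bases after the CCAAT. The Cdc20 stretch is chr4:118437346-118437406 on the minus strand, with the CHR 18 bases before the start. The Cdk1 stretch is chr10:69352913-69352970 on the minus strand, with the CHR 15 bases before the start. The Mki67 stretch lies farther out, at chr7:135716480-135716530 on the minus strand, with the CHR 116 bases before the start. The Kif11 stretch is chr19:37376327-37376378 on the plus strand, with the CHR 19 bases before the start. In Mcm5, at chr8:75109346-75109377 on the plus strand, E2F words of both strands overlapped 153 and 149 bases before the start. In Mcm7, at chr5:138172031-138172058 on the minus strand, the word shown began 165 bases before the start.

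The tissue was liver by its markers: the 6 hepatocyte markers averaged from 10.10 (the lowest gene) to 12.90 (Alb) over all arrays. Values in the table ran from -0.51 to 13.42. The means of the members ran from 0.98 to 7.52, and 11 of the 46 lay below the median of all probe set means, 1.64. Birc5 (mean 0.98), the survivin subunit of the chromosomal passenger complex, did not pass the filter on dim genes, a mean above 1.17, so 45 members were tested, with mouse 118 or without it. The interquartile range of the values of an array, a measure of how widely it spread, ran from 2.78 to 3.63, and that of mouse 118 was 3.51.

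The G2 and mitosis genes varied together from liver to liver, and a small number of livers held most of the range. The mitosis mean, the average over the 29 genes of the value minus the gene's own mean, had a median of -0.14 and a highest value of 1.14. It was 1.14 in mouse 381 (Medium energy 33/47/20), 1.06 in mouse 104 (Low energy 60/20/20), 0.93 in mouse 118, 0.89 in mouse 420 (Medium energy 33/20/47) and 0.85 in mouse 154 (Medium energy 42/29/29). Mice 199 and 435, both on High energy 5/48/48, followed at 0.53 and 0.45, and the other 41 livers lay between -0.32 and 0.17. Livers on the diets of mice 381 and 104 did not share these levels: mouse 418, the other Medium energy 33/47/20 animal, was at 0.07, and mice 141 and 142, which shared Low energy 60/20/20 with mouse 104, were at -0.20 and -0.17. Within a combination the standard deviation of the mitosis mean was 0.35, against 0.31 between the means of the 20 combinations, or 0.23 without mouse 118. Means of so few mice also carry the variation between mice, so the spread between combinations does not measure an effect of diet. In such bulk samples a change in the number of cells of a type and a change in RNA per cell cannot be told apart.

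**Figure D1:**
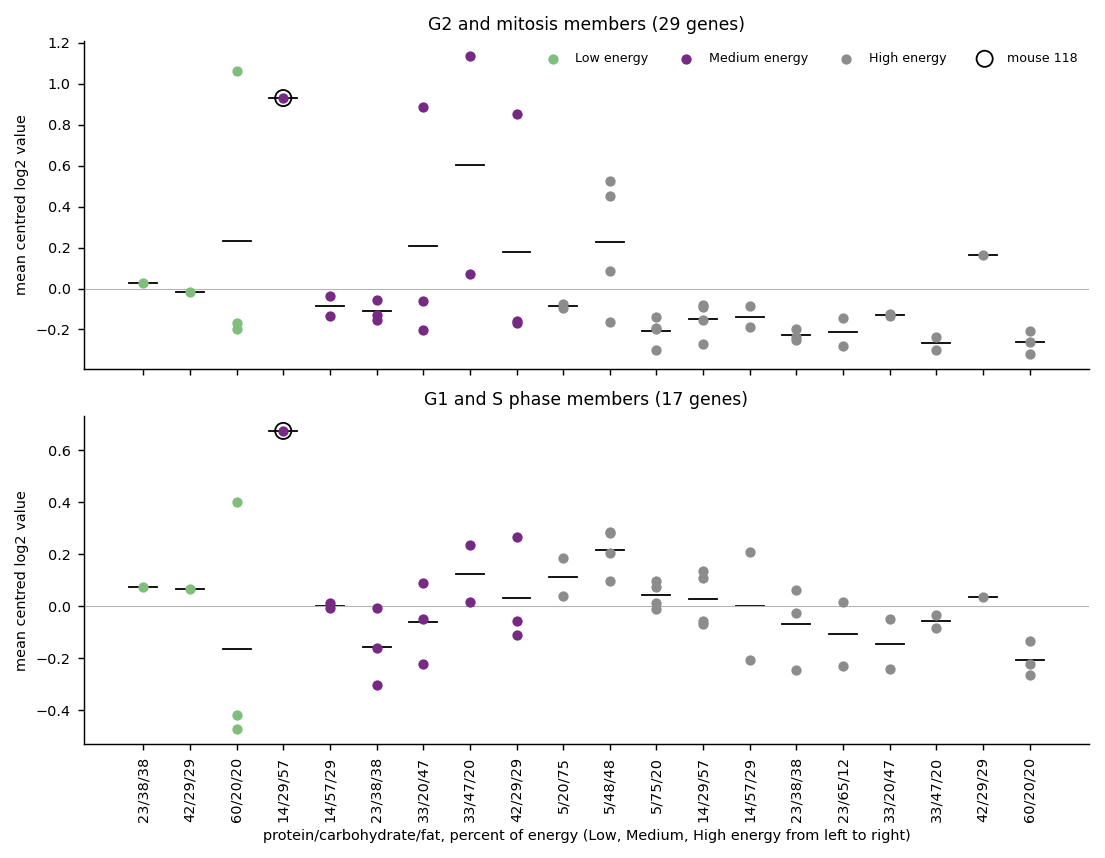
Mean centred log2 value of the G2 and mitosis members (upper panel) and of the G1 and S phase members (lower panel) in each mouse (points), by diet combination from Low through Medium to High energy; bars are combination means and the open circle marks mouse 118. The mitosis mean reaches 0.85 or more in 5 livers, while other livers on the diets of mice 381, 104, 420 and 154 lie near or below 0. Mouse 118 was the only mouse on its diet.

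The livers with the highest mitosis means were picked by the same 29 genes, so the counts below describe the peaks and do not test them. The share of all genes so raised in these livers was not counted. In mouse 381, 18 of the 29 genes lay more than 1 above their median over all mice, in mouse 104 it was 17, and in mice 118, 420 and 154 it was 13 each. Cyclin B2 stood highest over its median of all members: Ccnb2 reached 5.82 in mouse 381, 8.97-fold above its median of 2.65. Kif20a, a kinesin of the central spindle, reached 4.44 in mouse 104, 6.44-fold above its median of 1.75. Mki67 reached 5.21 in mouse 381 against a median of 2.68, and Prc1, which bundles the central spindle, reached 4.02 there against 1.51. Which liver was highest differed by gene: mouse 381 was the highest of all 48 for 11 of the 46 members, mouse 118 for 9, mouse 104 for 7, mouse 154 for 5, mouse 420 for 4 and mouse 440 for 3.

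**Figure D2:**
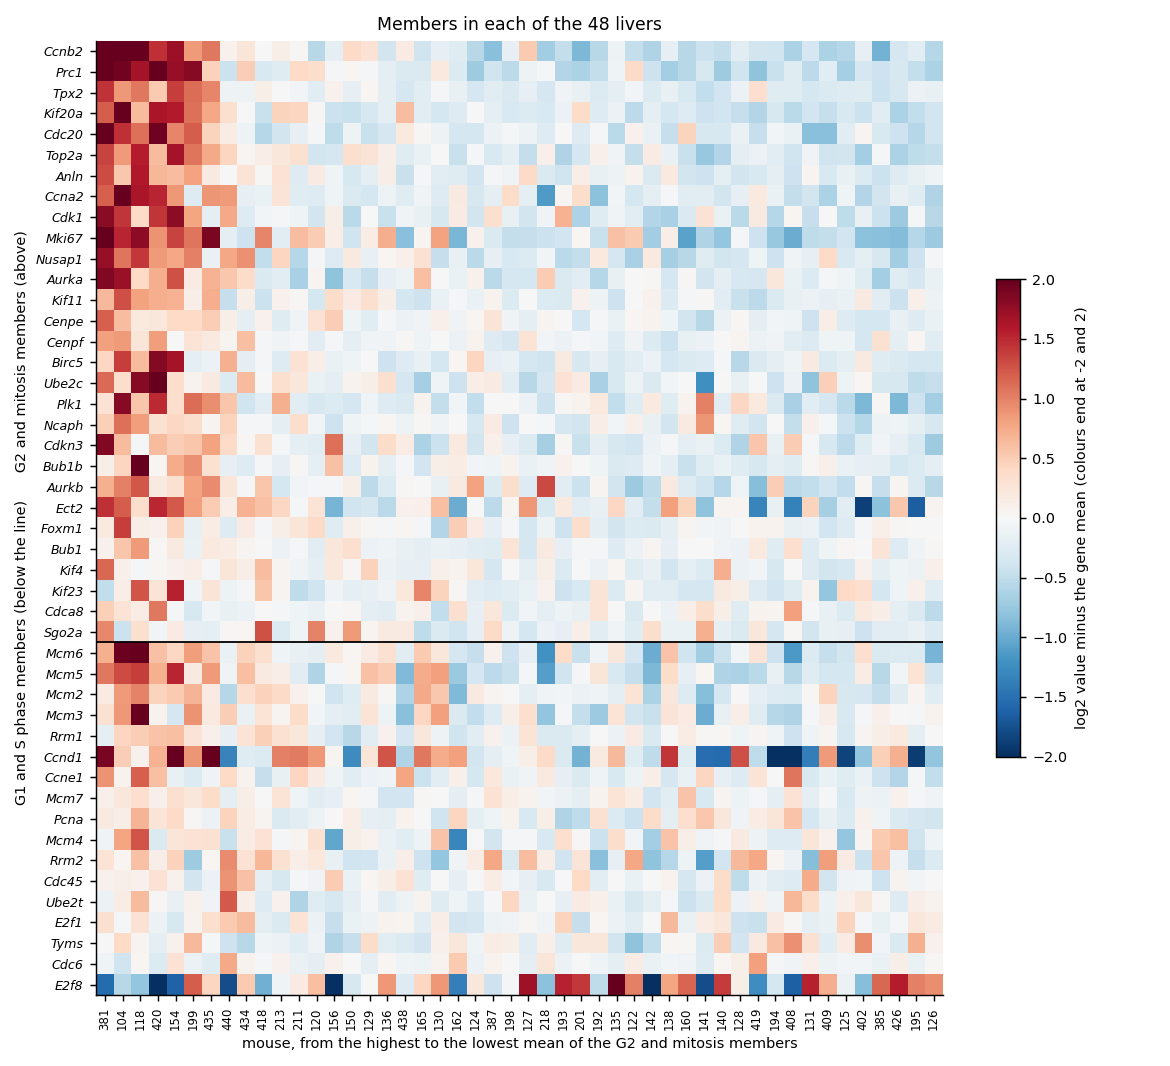
Each measured member (rows) in each of the 48 livers (columns, from the highest to the lowest mitosis mean), as log2 value minus the gene mean; rows within each list run from the highest to the lowest correlation with the mitosis mean. Ccnb2, Prc1 and most other G2 and mitosis genes are high in the 5 to 7 livers on the left, Mcm6 and Mcm5 lead the rows below the line, and E2f8 runs against the rest.

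Most of the other mitotic genes were also highest in mice 381, 104, 420 or 154. Aurka, the kinase of the spindle poles, reached 4.31 in mouse 381 against a median of 2.31, and Cdc20 reached 5.05 there, 5.32-fold above its median. Nusap1, which bundles spindle microtubules, and Cenpe, the kinetochore motor, were also highest in mouse 381, at 3.62 and 2.81. Cdkn3, a phosphatase that acts on cyclin-dependent kinases, was 3.63 there, and Kif4, a kinesin of the chromosome arms, was 2.47. Kif11, the motor that pushes the spindle poles apart, Cenpf, a kinetochore protein, and Foxm1, the transcription factor of the mitotic wave, were highest in mouse 104, at 3.60, 2.37 and 2.72. Birc5, Ube2c and Ect2, the exchange factor that directs the contractile ring, were highest in mouse 420, at 2.81, 4.54 and 5.70, and Kif23 was highest in mouse 154, at 3.46. Outside those 4 livers, Bub1, Bub1b and Anln were highest in mouse 118, Aurkb in mouse 218 (3.12) and Sgo2a in mouse 418 (2.60).

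Ccnd1 and E2f8 varied most of all members, with standard deviations of 1.10 and 1.16 over the 48 livers. Ccnd1 was 8.63 in mouse 154, 8.37 in mouse 381 and 8.49 in mouse 435, but 6.56 in mouse 118, near its median of 6.55. E2f8 was 6.31 in mouse 135, its highest, and 2.73, 2.19 and 2.66 in mice 381, 420 and 154, all below its median of 4.33. Among the G1 and S phase genes, Mcm7 varied little (SD 0.22), as did Cdc6 (0.23) and Pcna (0.30).

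Correlations over the 48 livers are given as descriptions, since all genes of a liver share its array. The median Pearson r over the 406 pairs of G2 and mitosis genes was 0.505, and 0.484 without mouse 118. Over the 136 pairs of G1 and S phase genes it was 0.098, and 0.047 without mouse 118. The helicase was the exception among them: the 15 pairs of Mcm2 to Mcm7 had a median r of 0.54 (0.45 without mouse 118), and the other S phase genes had a median r of 0.012 with each other (-0.0045 without it). With the mitosis mean, computed without the gene itself, r was 0.93 for Ccnb2, 0.91 for Prc1, 0.89 for Tpx2, a spindle assembly factor, and 0.88 for Cdc20 and Kif20a. It was over 0.5 for 23 of the 29 G2 and mitosis genes, or 24 without mouse 118, and lowest for Sgo2a (0.20), the shugoshin that guards centromeric cohesion, and Cdca8 (0.34), borealin of the passenger complex.

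In G1 and S phase, r with the mitosis mean was over 0.5 for 3 of 17 genes, Mcm6 (0.73), Mcm5 (0.72) and Mcm2 (0.57), and without mouse 118 it was 0.67, 0.68 and 0.51 for them. It was near 0 for Tyms (0.01), thymidylate synthase, and below 0 for Cdc6 (-0.13), which loads the helicase, and E2f8 (-0.37), an E2F repressor. The S phase mean and the mitosis mean had r = 0.65 and Spearman rho = 0.54 over 48 mice, r = 0.58 without mouse 118, and r = 0.61 when the 2 mice with the most distant mitosis means were left out. The 2 lists differed in their relation to the spread of the array. The interquartile range had r = 0.60 with the S phase mean and 0.13 with the mitosis mean. Among single genes, r with it was 0.64 for E2f8, 0.60 for Mcm2, 0.58 for Mcm4 and 0.53 for Ccnd1, and -0.54 for Pcna. Without mouse 118 these were 0.67, 0.58, 0.57, 0.54 and -0.64.

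**Figure D3:**
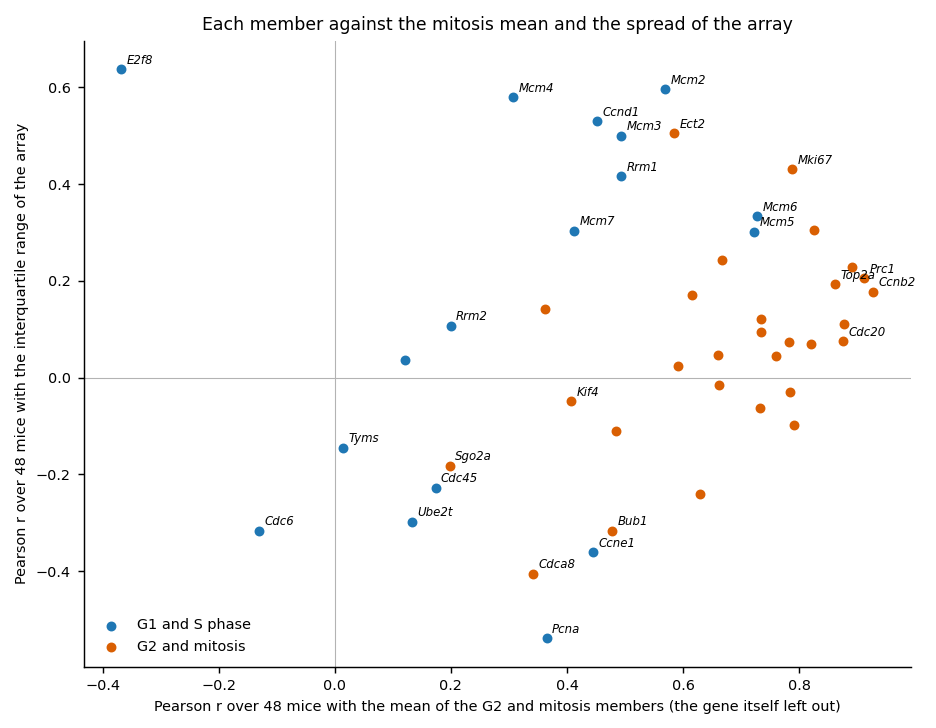
Each member by its Pearson r over 48 mice with the mitosis mean, the gene itself left out (horizontal axis), and with the interquartile range of the array (vertical axis). Most G2 and mitosis genes lie to the right and near 0 on the vertical axis, while E2f8 (0.64), Mcm2 (0.60), Mcm4 (0.58) and Ccnd1 (0.53) lie high and Pcna (-0.54) lies low.

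Markers of other cells did not sit alike in the leading livers. In mouse 118 the 7 macrophage markers were all at their highest of 48 mice, with a list mean of 10.34 against 5.37 to 8.31 in the other mice, and the neutrophil list stood at 5.56 against 0.99 to 2.46. Its hepatocyte list, at 11.33, was the lowest, against 11.58 to 12.10 in the others. Of that list only Hnf4a (8.45) and Ttr (11.91) lay below all other mice, and Alb, Apoa1, Cps1 and Tat lay within their range. The erythroid list of mouse 118, at 4.54, was the highest, with Slc4a1 (6.32) above the other mice and Klf1 (2.76) within their range. In mouse 104 the neutrophil list stood at 2.46, second of 48, and the erythroid list, of which Klf1 and Slc4a1 were measured, stood at 3.52, against a median of 2.28 in the other mice. Mouse 420 had an erythroid list mean of 3.87, a macrophage list mean of 7.54, and the highest hepatocyte list mean of 48, 12.10. In mouse 381, with the highest mitosis mean, the macrophage list stood at 6.12 and the neutrophil list at 1.06. Both were below the medians of the other mice (6.52 and 1.21). The list of fetal liver and hepatocyte tumour genes stood at 2.69 in mouse 381, the highest of 48. Of its 4 measured genes only 1 was at its highest there and 3 were above the median of the other mice. Of these 4 dim genes 2 had means below the median of all genes. Mouse 154 was second for stellate markers (6.29) and highest for cholangiocyte markers (4.10). All 5 neutrophil markers had means below the median of all genes. The part of these cells in the levels of the members was not tested.

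Mouse 118 stood above the median of the other 47 mice for 44 of the 46 members, by more than 1 for 19 of them and by a median of 0.84. Its median difference was 0.55 for the 17 G1 and S phase genes and 0.90 for the 29 G2 and mitosis genes. It was the highest of all mice for 6 of the G1 and S phase genes and for 3 of the G2 and mitosis genes. Genes outside the members stood high there too. Of 15 cyclin-dependent kinase inhibitors and growth arrest genes 9 were highest in mouse 118, with a list mean of 6.09, against at most 5.55 in the others. Of 15 other G1 regulators 6 were highest there. Mcm6 was 5.47 in mouse 118, against 2.96, 3.71, 3.75 and 3.93 in the 4 High energy 14/29/57 mice. Mcm3 was 5.91 there and at most 4.75 in the other 47 mice. Pcna was 8.21, against 7.01 to 7.60 in those 4 mice. Of the mitosis genes, Bub1b, a spindle checkpoint kinase, was 3.85 in mouse 118, 5.10-fold above its median, and Anln and Bub1 were also at their highest. Ccnd1, at 6.56, was close to the median of the other mice, 6.53, and E2f8, at 3.50, was below it. In all, 36 of the 46 members were higher in mouse 118 than in each of the 4 High energy 14/29/57 mice. How many of all genes stood as high in mouse 118 was not counted, so these counts cannot be read as particular to the members. The interquartile range of its array was 3.51, against a median of 3.29 in the other mice. One mouse gives no test of its diet.

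Between High and Medium energy, no member passed the threshold, though all 28 G2 and mitosis genes tested had lower fitted values at High energy. The contrast came from a limma model with the protein share and the exchange of carbohydrate for fat held. Its threshold was a Benjamini-Hochberg adjusted p of 0.05 over the 16926 genes tested, of which 0% passed. The median change of the 28 G2 and mitosis genes was -0.31, from -0.78 to -0.07, and that of the 17 G1 and S phase genes was -0.12, from -0.60 to 0.82, against 0.01 over all genes. Without mouse 118 the medians were -0.24 for G2 and mitosis and -0.02 for G1 and S phase. Among Medium energy mice the mitosis mean was 1.14 in mouse 381, 0.93 in mouse 118, 0.89 in mouse 420 and 0.85 in mouse 154. The other Medium energy mice lay between -0.20 and 0.07, and High energy mice other than 199 and 435 between -0.32 and 0.17. A fit without mice 381, 420 and 154 together was not run. The G2 and mitosis genes varied together, so their shared sign is not 28 separate results. An unadjusted p under 0.05 was found for 18 members, and for 1376 of all genes. All 7 macrophage markers also had lower fitted values at High energy, with a median of -0.48, or -0.26 without mouse 118, and none passed; their part in the values of the members was not tested.

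Mki67, a mark of cycling cells, ran from 1.95 through a median of 2.56 to 4.90 in the 29 High energy mice, against 2.57 through 3.34 to 5.21 in the 14 Medium energy mice, whose median was 3.16 without mouse 118. The High energy values lay lower but overlapped the Medium energy values over most of their range. The fitted difference was -0.78 ± 0.24 (SE; limma adjusted p = 0.416). Sgo2a had the smallest p of the members, -0.49 ± 0.11 (SE; limma adjusted p = 0.192), and ran from 0.83 to 1.52 in High energy livers, against 1.09 to 2.60 in Medium energy livers. Cdk1, the kinase that starts mitosis, ran from 1.84 through 2.38 to 3.36 at High energy, against 2.03 through 2.73 to 4.38 at Medium energy, with a median of 2.70 there without mouse 118. Its fitted difference was -0.53 ± 0.18 (SE; limma adjusted p = 0.497).

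Top2a, the topoisomerase that untangles sister chromatids, ran from 1.48 through 1.97 to 3.23 at High energy, against 1.56 through 2.20 to 3.83 at Medium energy. Ccna2 ran from 1.13 through 2.07 to 3.15 at High energy, against 1.43 through 2.15 to 3.89 at Medium energy. For both genes the medians were close and the Medium energy group reached higher, also without mouse 118 (3.83 for Top2a and 3.79 for Ccna2). In the S phase list, Mcm2 ran from 2.73 through 3.49 to 4.36 at High energy, against 3.21 through 3.72 to 4.61 at Medium energy, and Pcna ran from 7.01 through 7.45 to 8.09, against 6.91 through 7.61 to 8.21. Without mouse 118 the highest Medium energy values were 4.13 for Mcm2 and 7.90 for Pcna, below the highest High energy values. Rrm2, a subunit of ribonucleotide reductase, ran from 3.29 through 4.04 to 5.09 at High energy, against 3.30 through 4.38 to 4.91 at Medium energy. The groups overlapped for each of these genes. E2f8 was the member with the largest positive difference, 0.82 ± 0.32 (SE; limma adjusted p = 0.523), with a median of 4.99 at High energy, against 3.63 at Medium energy (3.76 without mouse 118).

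Restricting the contrast to compositions fed at both energy levels moved the count, and most of the calls were lost when the 14/29/57 pair was left out. In those matched combinations 10 members passed, 9 of them lower at High energy (Anln, Bub1b, Mcm6, Mki67, Prc1, Sgo2a, Top2a, Tpx2 and Ube2c), where 6.97% of all genes passed as lower, and Ube2t higher, where 4.25% passed as higher. The matched difference was -1.08 for Mki67 and -0.48 for Bub1b. Leaving the 14/29/57 pair out of the contrast left 1 member, Ube2t, which takes part in repair of crosslinked DNA. Mouse 118 was dropped from that fit, while the 4 High energy 14/29/57 mice stayed in it for the estimate of spread. Ube2t was at 0.52 ± 0.09 (SE; limma adjusted p = 0.0175), with 0.00591% of all genes called higher. Its highest value of all, 2.64, was in mouse 440, the only High energy mouse on 42/29/29.

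At 60/20/20, where 3 Low energy and 3 High energy mice can be set side by side, the G2 and mitosis genes had a median fitted difference of 0.46, Low minus High, and 1 mouse held most of it. Of the 28 genes tested, 26 had positive differences, from -0.07 to 1.51 over the list, and the 17 G1 and S phase genes had a median of 0.08, against -0.03 over all genes. No member passed in limma's fit with 1 mean for each combination, where 0% of all genes passed, and 6 members and 1710 of all genes had an unadjusted p under 0.05. Without mouse 104 the median of the G2 and mitosis genes was 0.01, with 16 of 28 positive, and that of the G1 and S phase genes was -0.18. Mouse 118 is on another diet, and without it these medians were 0.46 and 0.08. The 4 neutrophil markers tested were all positive, with a median of 0.58 and none called, and their part was not tested.

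Mki67 was 4.54, 2.42 and 2.33 in Low energy mice 104, 141 and 142, against 2.63, 2.30 and 2.25 in High energy mice 125, 126 and 194. Ccna2 was 4.27, 2.03 and 2.06 in the same Low energy mice, against 2.18, 1.65 and 2.12 in the High energy mice. Mcm6 was 5.37, 2.72 and 2.42 at Low energy, against 3.05, 2.49 and 2.99 at High energy. For these 3 genes mouse 104 was high and the other Low energy mice lay within or near the High energy values.

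A few genes did not depend on mouse 104 alone. Plk1, a kinase of mitotic entry and exit, was 4.53, 3.71 and 2.89 at Low energy, against 2.17, 2.02 and 2.41 at High energy, and the groups did not overlap. Its difference was 1.51 ± 0.41 (SE; limma adjusted p = 0.295). Ncaph, a condensin subunit, was 2.80, 2.58 and 1.55 at Low energy, against 1.28, 1.38 and 1.69 at High energy, a difference of 0.86 ± 0.23 (SE; limma adjusted p = 0.261). It passed alone when mouse 142 was left out, with a limma adjusted p of 0.0133 and 0.0177% of all genes called higher. Cdk1 was 4.01, 2.86 and 1.99 at Low energy, against 2.08, 2.03 and 2.01 at High energy. A robust fit, which gives distant values less weight, called 8 members higher (Ccne1, Cdca8, Cdk1, Ncaph, Pcna, Plk1, Sgo2a and Top2a), with 7.41% of all genes called higher.

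**Figure D4:**
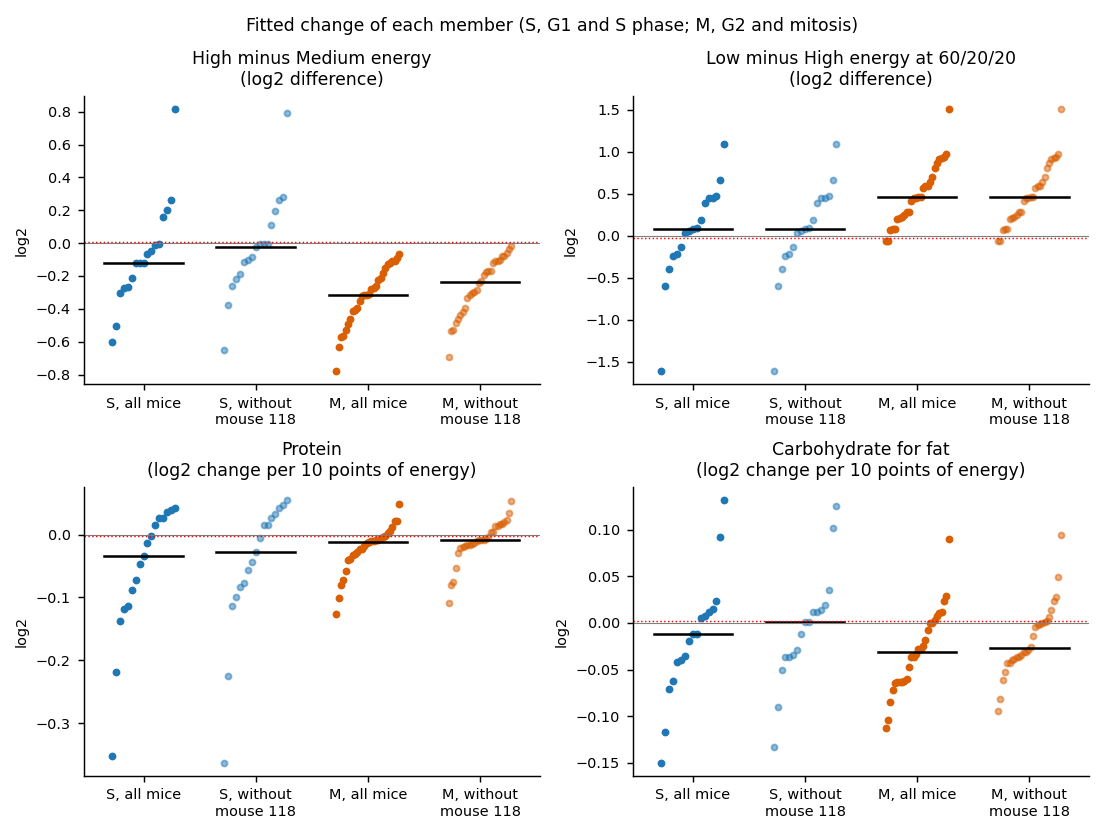
Fitted log2 difference or slope of each tested member (points) in the 4 comparisons, for G1 and S phase (S) and G2 and mitosis (M), with all mice and without mouse 118; black bars are list medians, the dotted line is the median of all genes with all mice. The G2 and mitosis medians are -0.31 and -0.24 between High and Medium energy and 0.46 in both fits at 60/20/20, and the lowest protein slopes are those of Ccnd1 (-0.35) and E2f8 (-0.22).

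With rising protein share, cyclin D1 fell and the other members did not pass. The protein slope of limma's model, in log2 units for every 10 points of energy given to protein in place of the other macronutrients, was -0.35 ± 0.09 for Ccnd1 (SE; limma adjusted p = 0.0159). Ccnd1 was thus 1 of the 617 genes that passed as lower, 3.65% of all genes tested, and 1 of 45 members called where 7.01% of all genes were called in either direction. Over the 55 points between the lowest and the highest share the slope comes to a 3.84-fold lower level. Without mouse 118 the slope was -0.36 (limma adjusted p = 0.0135), again the only member among the 4.16% of genes called lower.

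Ccnd1 ran from 6.23 through a median of 7.16 to 8.49 in the 10 mice on 5% protein, and from 5.53 through 6.56 to 7.90 in the 9 mice on 14%. It ran from 4.10 through 6.53 to 7.48 on 23% and from 4.58 through 6.20 to 8.37 on 33%. On 42% protein the 5 mice had 5.14, 6.23, 6.65, 7.51 and 8.63, and on 60% the 6 mice ran from 4.32 through 5.31 to 6.97. Levels were lowest on 60% protein, with overlap between neighbouring shares, and the 42% group did not follow the order. Ccnd1 also followed the spread of the array, and with the interquartile range as a term its slope was -0.23 (limma adjusted p = 0.305), with 0 members among the 0.219% of genes called lower. The interquartile range itself ran from 3.22 to 3.63 in the mice on 5% protein and from 2.88 to 3.43 on 60%. Array spread and protein share thus cannot be fully told apart. The call held in 47 of 48 fits that left out 1 mouse each and was lost without mouse 194 of High energy 60/20/20 (limma adjusted p = 0.0512). Ccnd1 had r = -0.56 with the Y-linked minus Xist value of a liver, and with that value as a term its slope was -0.32 (limma adjusted p = 0.00763). Of the stellate markers, Col1a1 was also called lower with protein (-0.32, limma adjusted p = 0.0278, or 0.486 with the interquartile range as a term), and all 6 had negative slopes; their part in the Ccnd1 slope was not tested.

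No other G1 and S phase gene passed. All 6 of Mcm2 to Mcm7 had negative slopes, from -0.14 for Mcm6 to -0.05 for Mcm7. Mcm4 had -0.12 ± 0.04 (SE; limma adjusted p = 0.0627), and Mcm6 had -0.14 ± 0.05 (SE; limma adjusted p = 0.0975). Mcm4 had medians of 3.94, 3.73, 3.69, 3.64, 3.66 and 3.54 on 5%, 14%, 23%, 33%, 42% and 60% protein, and 3.67 on 14% without mouse 118. Mcm6 had medians of 3.60, 3.71, 2.98, 3.45, 3.27 and 2.85 on the same shares, and 3.60 on 14% without mouse 118. The lowest Mcm4 and Mcm6 medians were on 60% protein, and the ranges of all shares overlapped. E2f8 had -0.22 ± 0.09 (SE; limma adjusted p = 0.121), and with the interquartile range as a term its slope was -0.04. Pcna had 0.04 ± 0.03 (SE; limma adjusted p = 0.431). The median slope was -0.03 over the 17 G1 and S phase genes and -0.01 over the 28 G2 and mitosis genes, against -0.0019 over all genes, and mitotic slopes ran from -0.13 (Mki67) to 0.05 (Aurka).

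Other settings added members of the S phase list to Ccnd1. Array weights called 4 members lower (Ccnd1, E2f8, Mcm3 and Mcm4), with 15.1% of all genes called lower, and the robust fit called 5 (Ccnd1, Mcm3, Mcm4, Mcm6 and Ube2c), with 9.55% lower. The logarithm of the protein share called 4 (Ccnd1, Mcm3, Mcm4 and Mcm6), with 12.8% lower, and the High energy mice alone gave 3 (Ccnd1, Mcm4 and Mcm6), with 2.56% lower. Leaving out mouse 126 called Ccnd1, E2f8 and Mcm4, with 10.3% of all genes called lower, and leaving out mouse 104 called Ccnd1, Mcm4 and Mcm6, with 4.25% lower. Ccnd1 and Mcm4 were called without mouse 156 (4.64% lower) and without mouse 387 (3.5% lower), and no member was called without mouse 194 (1.96% lower).

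**Figure D5:**
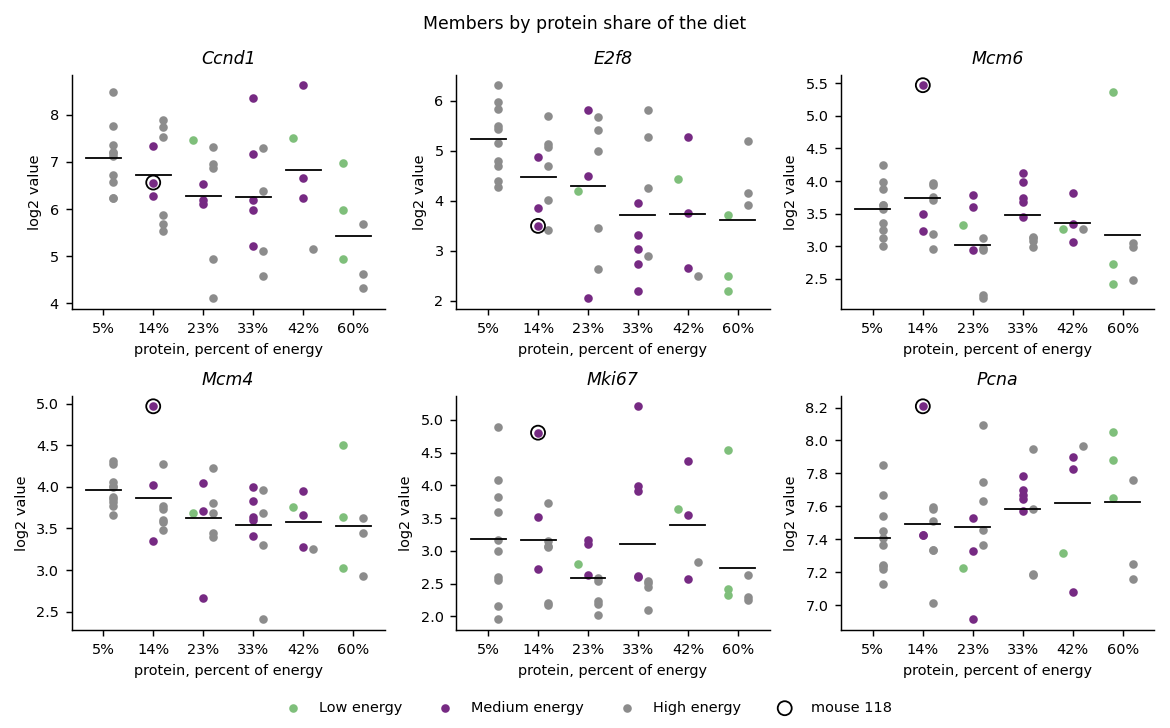
Log2 value of 6 members in each mouse by the protein share of the diet (percent of energy), coloured by energy level; bars are means of each share and the open circle is mouse 118. Ccnd1 runs from a mean of 7.09 on 5% protein to 5.42 on 60%, E2f8 from 5.23 to 3.61, and single livers (mouse 118 on 14%, mouse 104 on 60%) stand far above the others for Mcm6. Mice on 5% protein were all at High energy, and those on 60% at Low or High energy. On 60% protein the Low and High energy means were 5.96 and 4.88 for Ccnd1 and 2.80 and 4.42 for E2f8.

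Moving energy from fat to carbohydrate at the same protein share changed no member past the threshold. The slope, again for 10 points of energy, had a median of -0.03 over the G2 and mitosis genes and -0.01 over the G1 and S phase genes, against 0.00 over all genes. Without mouse 118 these medians were -0.03 and 0.00. In limma's fit 0% of all genes passed, and 1 member, Mcm5, and 665 of all genes had an unadjusted p under 0.05. The slope of Mcm5 was -0.15 ± 0.06 (SE; limma adjusted p = 0.999), and that of Mcm6 was -0.12 ± 0.06 (SE; limma adjusted p = 0.999).

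On 5% protein, all at High energy, Mcm5 averaged 3.39 ± 0.17 (SD, n = 2) on 5/20/75, 3.01 ± 0.51 (SD, n = 4) on 5/48/48 and 2.46 ± 0.28 (SD, n = 4) on 5/75/20. On 33% protein the order was the other way, with 2.49 ± 0.59 (SD, n = 5) on 33/20/47 and 3.00 ± 0.55 (SD, n = 4) on 33/47/20. Unlike the 5% groups, these pooled Medium and High energy mice, with mouse 420 (3.40) in the first and mouse 381 (3.75) in the second. The mitosis mean on 5% protein was -0.09 ± 0.01 (SD, n = 2), 0.23 ± 0.32 (SD, n = 4) and -0.21 ± 0.07 (SD, n = 4) from the lowest to the highest carbohydrate share, so the middle composition, with mice 199 and 435, was the highest. The S phase mean there was 0.11, 0.22 and 0.04.

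Genes of the cycle outside the members were followed in 4 further lists. The other mitosis genes, such as Nuf2, Ndc80 and Spc24 of the kinetochore, followed the members by Pearson r more than by rank: their mean had r = 0.88 and Spearman rho = 0.59 with the mitosis mean over 48 mice, and r = 0.86 and rho = 0.57 without mouse 118. No gene of these lists passed in the energy comparisons or with carbohydrate for fat. With protein, 7.01% of all genes tested were called in either direction, and 3.65% were called lower. Of 23 other replication genes 2 were called higher, Tk1 (0.19 ± 0.05, SE; limma adjusted p = 0.0266) and Gins1 (0.11 ± 0.03, SE; limma adjusted p = 0.0068). Of 45 other mitosis genes 1 was called higher, Spc24 (0.27 ± 0.06, SE; limma adjusted p = 0.0047). The counts of these 2 lists are near or below the share over all genes. Of 15 other G1 regulators 3 were called lower, the transcription factors E2f4 and Myc and cyclin D2 (Ccnd2), with slopes of -0.15, -0.24 and -0.24. Of 15 inhibitors and growth arrest genes, Cdkn1a (p21) and Gadd45b were lower, with slopes of -0.51 and -0.29, and Rbl2 (p130) was higher, with 0.09. Rbl2 was the only one of these 9 genes still called with the interquartile range as a term (limma adjusted p = 0.0167).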

How the data were processed

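Per the labels' protocols, RNA from 48 livers (Qiagen AllPrep) was labelled with biotin as cRNA and read on Affymetrix arrays. One value per array was deposited for each of 41345 probe sets, and these values were read as log2 expression from their range. Values were used as the authors deposited them. Their background correction, normalization and software are not given in the sources used here. Of the probe sets, 23521 had 1 gene symbol in the platform annotation; 23328 of these matched RefSeq (GRCm38.p6). Each gene was its probe set with the highest mean. Genes above the 30th percentile of probe set means were tested, 16926 in all.

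limma 3.58.1 (lmFit, eBayes with a trend; R 4.3.3) was fitted to all mice, with protein share, carbohydrate for fat exchange and energy level as terms, or with 1 mean for each combination at 60/20/20. Tests were two-sided, adjusted by Benjamini-Hochberg over all genes tested at 0.05, and the fit was tested on simulated data. No array pair was identical, and the number of arrays limits the precision. Members, lists and tests were chosen with earlier results of these data known. Named genes were all members, with values by group for those called and 10 set members, and non-members by list only. Promoters came from RefSeq. Alternatives covered the dim-gene filter, probe set choice, normalization, weights, added terms, subsets of mice, the terms for diet and leaving out each mouse.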

Additional observations from a re-analysis of the deposited data

Results flagged for a closer look

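Each of 9 genes and both list means was looked at in the 6 protein shares and in the 3 combinations with 4 mice, 99 groups in all. In 14 of them, all by protein share, 1 mouse stood apart from the rest of its group by more than Dixon's 95% limit. Mouse 104, on 60% protein, accounts for 5 of them: Mki67 at 4.54 (next highest 2.63), Ccna2 at 4.27 (2.18), Mcm2 at 4.46 (3.38), Mcm6 at 5.37 (3.05) and the mitosis mean at 1.06 (-0.17). Mouse 118, on 14% protein, accounts for 6: Top2a at 3.73 (2.29), Ccna2 at 3.89 (2.62), Mcm6 at 5.47 (3.98), Pcna at 8.21 (7.60), the S phase mean at 0.67 (0.21) and the mitosis mean at 0.93 (-0.04). The other 3 were Cdk1 at 3.36 in mouse 199 and Ccna2 at 3.15 in mouse 435, both on 5% protein, and Cdk1 at 3.26 in mouse 193 on 23% protein. Groups share mice and genes share arrays, so these values are not independent of each other. About 1 in 20 groups of normal values from 1 population would pass the limit. Groups by protein share pool energy levels and compositions, so the count of 14 is not a test against that rate.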

How the results depend on the processing

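Among the genes with values by group and Mcm3, Mcm4 and E2f8, no value past the threshold, with all mice or under an alternative, changed direction. Below it, leaving out each mouse took the difference at 60/20/20 from -0.48 to 0.38 for Mcm2, from -0.27 to 1.20 for Mcm6 and from -0.02 to 1.09 for Mki67. Small slopes of Ccna2, Cdk1, Pcna, Rrm2 and Top2a with protein and of Ccnd1 and Pcna with carbohydrate for fat, and the High minus Medium difference of Pcna, also crossed 0 in some settings. The count of members called moved in these settings: High against Medium energy had 10 in matched combinations and 1 in those without the 14/29/57 pair, against 0; Low against High energy at 60/20/20 had 8 with a robust fit, against 0. For protein, against 1, there were 4 with array weights, 5 with a robust fit, 3 in High energy mice alone, 4 with the logarithm of the protein share, and 0 with protein exchanged for fat, with the interquartile range as a term, with it and the Y-linked minus Xist value, and with it and without mouse 118. Both pairs of choices and the reduced matched set were chosen after seeing the data. Leaving out each mouse in turn gave 0 to 0 members for High against Medium energy, 0 to 1 at 60/20/20, 0 to 3 for protein and 0 to 0 for carbohydrate against fat. For protein the count was 3 without mouse 104 or 126, 2 without 156 or 387 and 0 without 194, while 1367, 3004, 1396, 1155 and 620 of all genes were called, in the same order, against 1187 with all mice. The cause of these moves was not tested. Signal over background was not part of the table, so the dimmest members, such as Birc5, are the least certain. No paired analysis was possible because the mouse numbers of the labels are unique.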
